A study of Rattus norvegicus with 11 samples.

Results

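The glucocorticoid receptors of the hippocampus were compared between rats on a control diet and rats on a ketogenic diet. Also compared were an enzyme that regenerates their hormone, a co-chaperone that lowers hormone affinity, and 6 genes that their activation is known to induce. The 10 genes were Nr3c1, Nr3c2, Hsd11b1, Fkbp5, Sgk1, Tsc22d3, Per1, Klf9, Ddit4 and Cdkn1a. A probe set was taken as theirs where its single gene symbol in the platform annotation was one of these, which gave 14 of the 15923 probe sets on the array, for 10 of the 10412 genes that such symbols name. Of the 14, 11 passed the filter on low values, at least 1 for each of the 10 genes, among 11899 probe sets tested. No probe set of these genes passed the test between diets after adjustment, against 16.5% of all probe sets tested. The largest differences were a lower level of the mineralocorticoid receptor Nr3c2 (-0.29 on the log2 scale), a higher level of the co-chaperone Fkbp5 (0.27) and a lower level of Tsc22d3 (-0.20), with adjusted p-values of 0.168, 0.149 and 0.0788 (limma).

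Hippocampus RNA of 11 samples was hybridised to 1-colour expression arrays, 6 samples from rats given the control diet and 5 from rats given the ketogenic diet, a diet rich in fat and poor in carbohydrate that the labels describe as protecting against epileptic seizures. The labels give no strain, age, length of feeding, time of day or seizure model. Nor do they state that each sample is 1 animal, and a p-value here therefore measures only how these samples vary, which may in part be technical. Values are log2 signals after quantile normalization, a positive difference means higher on the ketogenic diet, and a probe set is described as called where its limma p, adjusted by Benjamini-Hochberg over all 11899, was under 0.05.

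Corticosterone, the main glucocorticoid of the rat, enters cells freely and binds 2 related receptors that act as transcription factors. The mineralocorticoid receptor has the higher affinity and is largely occupied at resting hormone levels, while the glucocorticoid receptor is recruited as hormone rises with stress or with the daily peak. The hippocampus is rich in both and takes part in the feedback that restrains hormone release. Before hormone binds, the receptors are held by a chaperone complex around Hsp90, in which Fkbp5 lowers hormone affinity and is itself induced by the activated receptor.

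Promoter sequence was read from the RefSeq windows of the assembly GRCr8, each 300 bases long, from 250 before to 50 after an annotated start, and is given 5 prime to 3 prime in the direction of transcription. Windows were found for 8 of the 10 genes, 13 windows in all. Nr3c2 and Hsd11b1 were not matched. The 4 windows below belong to the genes with the smallest unadjusted limma p, Tsc22d3 and Fkbp5, and to Sgk1 and Ddit4. The latter pair had the highest Pearson correlation within diets, a value that rests on few samples. Capitals mark the TATA box TATAAA, the GC box GGGCGG and the cAMP core TGACG, searched on both strands (no marked matches overlap in these windows), and for Sgk1 and Tsc22d3, which have 3 windows each, the start nearest the 3 prime end of the gene is shown.
Tsc22d3, chrX:109009985-109010284, minus strand: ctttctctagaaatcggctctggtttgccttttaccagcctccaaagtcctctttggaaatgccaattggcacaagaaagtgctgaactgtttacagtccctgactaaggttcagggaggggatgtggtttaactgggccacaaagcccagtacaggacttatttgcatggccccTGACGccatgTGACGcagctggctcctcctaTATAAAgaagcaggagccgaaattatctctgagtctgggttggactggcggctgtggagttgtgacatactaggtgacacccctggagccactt
Fkbp5, chr20:6543506-6543805, minus strand: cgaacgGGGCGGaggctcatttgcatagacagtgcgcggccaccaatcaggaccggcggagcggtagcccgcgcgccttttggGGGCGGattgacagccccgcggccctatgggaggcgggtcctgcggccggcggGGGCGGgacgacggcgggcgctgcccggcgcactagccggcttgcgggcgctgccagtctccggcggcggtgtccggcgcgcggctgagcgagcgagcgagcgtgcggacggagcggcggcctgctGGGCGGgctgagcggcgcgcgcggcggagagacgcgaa
Sgk1, chr1:24804782-24805081, minus strand: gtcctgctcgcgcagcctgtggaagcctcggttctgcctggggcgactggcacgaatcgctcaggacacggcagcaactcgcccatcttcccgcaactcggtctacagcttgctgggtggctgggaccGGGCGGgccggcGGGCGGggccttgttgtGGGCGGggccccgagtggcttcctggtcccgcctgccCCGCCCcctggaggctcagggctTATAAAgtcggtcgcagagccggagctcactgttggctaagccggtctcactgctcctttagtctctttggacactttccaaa
Ddit4, chr20:28436988-28437287, minus strand: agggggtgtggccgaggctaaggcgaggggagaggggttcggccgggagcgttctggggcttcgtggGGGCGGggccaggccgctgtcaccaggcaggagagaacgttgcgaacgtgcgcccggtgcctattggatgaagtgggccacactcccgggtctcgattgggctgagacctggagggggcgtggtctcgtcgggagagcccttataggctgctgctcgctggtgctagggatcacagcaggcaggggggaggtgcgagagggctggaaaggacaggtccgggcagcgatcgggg

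The windows of Sgk1 and Fkbp5 each held 4 copies of GGGCGG and that of Ddit4 held 1. The Sgk1 and Tsc22d3 windows each held TATAAA, beginning 33 and 44 bases before the start. The Tsc22d3 window also held TGACG, the core of a cAMP response element, at 2 places. Over all 33469 windows of that length in the table, GGGCGG was found in 33.1%, TATAAA in 14.2% and TGACG in 21.2%. Of the 13 windows of the matched genes, GGGCGG was found in 8 (Ddit4, Fkbp5, Nr3c1, Sgk1 and Tsc22d3). TATAAA was found in 3 (Sgk1 and Tsc22d3) and TGACG in 3 (Cdkn1a, Klf9 and Tsc22d3). Several windows can belong to 1 gene, so these counts are not counts of genes. The hexamer TGTTCT, one arm of a glucocorticoid response element, lay in none of the 13 windows and in 20.7% of all windows. CACGTG, the E-box that clock proteins bind, lay in none of the 13 and in 6.42% of all. The full palindromic glucocorticoid response element, with its arms 3 bases apart, lay in none of the 13 and in 0.0149% of all. A match describes letters in these windows and is no evidence of a bound site. An absence likewise covers only these windows and says nothing about elements that lie outside them.

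Several array measures differed between the diets. The ratio of 3 prime to 5 prime control signal, which rises as RNA is degraded or incompletely copied, was above control in the ketogenic samples for Gapdh (log2 0.04 ± 0.07, SD, n = 6, against 0.25 ± 0.08, n = 5; exact permutation test, two-sided, adjusted p = 0.00866) and for actin (0.67 ± 0.10 against 0.86 ± 0.10; exact adjusted p = 0.00433 over 4 measures). The median log2 signal of the deposited values was lower in the ketogenic samples (6.53 ± 0.03, n = 6, against 6.39 ± 0.06, n = 5; exact adjusted p = 0.00433), from 6.48 to 6.56 on the control diet and from 6.32 to 6.46 on the ketogenic diet, with no overlap, and quantile normalization removes that difference. Actin and the median reached 0.00216, the smallest unadjusted p that 6 against 5 samples allow. Ketogenic sample 3 lay apart from its group: on the first principal component, which held 34.5% of the variance, it was at -2.82, the other ketogenic samples were between 18.7 and 25.8, and the control samples were between -17.3 and -10.6. Its mean correlation was 0.961 with control samples and 0.952 with ketogenic samples. Its title ends in a letter that no other title carries, with a meaning the labels do not give, and whether the sample is mislabelled or mixed was not tested. Without it, 3165 probe sets were called in place of 1961. Markers of 10 cell types were set beside the 16.9% of all genes called. Red cell genes were called for 5 of 5 tested (4 lower), and choroid plexus genes for 4 of 7, all lower. Microglia and astrocytes had 2 called of 6 and of 7, and meninges, vascular cells and oligodendrocytes had 1 each of 7, 6 and 7, all lower, with a median difference of -0.55 for meninges and -0.22 for vascular cells. Of hippocampal principal cell markers, 2 of 7 were called, both higher: Camk2a by 1.34 (limma adjusted p = 0.00395) and Nptx1 by 0.50 (limma adjusted p = 0.0103). Only 3 of these 7 had a positive difference, and their median was -0.007. Neurons in general had 0 called of 6 and interneurons 0 of 8. The mean level over the red cell list ran from 7.39 to 7.76 on the control diet and from 6.20 to 6.67 on the ketogenic diet, over the choroid plexus list from 6.64 to 7.40 and from 6.18 to 6.76, and over the principal cell list from 8.51 to 8.69 and from 8.72 to 8.98. The principal cell mean includes Camk2a, which had by far the largest difference of its 7 markers. The part of these cells in the results was not tested. In whole tissue, fewer cells of a type and less RNA per cell cannot be told apart.

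Of the 2 receptors, the glucocorticoid receptor Nr3c1 had nearly the same level on both diets, and the mineralocorticoid receptor Nr3c2 was lower in most ketogenic samples without passing the test. For Nr3c1 (1368221_at) the control samples ran from 6.98 to 7.59 with a median of 7.33, and the ketogenic samples were at 7.20, 7.26, 7.38, 7.37 and 7.52. The ketogenic values lay inside the control range. Means were 7.33 ± 0.21 (SD, n = 6) and 7.35 ± 0.13 (n = 5), a difference of 0.01 with a standard error of 0.10 and a 95% interval from -0.21 to 0.24 (limma adjusted p = 0.937). That interval corresponds to changes between -13.5% and 17.8%. The sign of so small a difference was not stable, at -0.04 on the values as deposited and -0.0075 after centring on the 75th percentile. The other Nr3c1 probe set (1368222_at) was not tested, since its mean of 3.26 was below the filter of 5.16, and it was at the floor in 4 control and 2 ketogenic samples.

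For Nr3c2 (1368476_at), the control samples ran from 8.51 to 9.05 with a median of 8.79. The ketogenic samples were at 8.50, 8.36, 8.09, 8.50 and 9.02. Ketogenic samples 1 to 4 were below every control sample, samples 1 and 4 only just, while sample 5 was near the top of the control range. Means were 8.78 ± 0.23 (n = 6) and 8.49 ± 0.34 (n = 5), a difference of -0.29 with a standard error of 0.14 and a 95% interval from -0.59 to 0.01 (limma adjusted p = 0.168). The decrease in the point estimate was 18.1%, with an interval from -33.5% to 0.9%. Without ketogenic sample 5 the difference was -0.42 and passed the test (adjusted p = 0.0424), and without ketogenic sample 3 it was -0.19 (adjusted p = 0.317).

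Hsd11b1 (1386953_at), which regenerates active corticosterone from its inert keto form inside cells, was among the steadiest probe sets on the array. Control samples ran from 7.93 to 8.15 with a median of 8.03, and ketogenic samples were at 8.12, 8.09, 7.98, 8.05 and 8.07. The means were 8.04 ± 0.08 (n = 6) and 8.06 ± 0.05 (n = 5), a difference of 0.02 with a standard error of 0.06 and a 95% interval from -0.12 to 0.16 (limma adjusted p = 0.862). Its residual spread was at percentile 2.89 of all tested probe sets, and the interval, from -7.8% to 11.4%, was the narrowest among these genes. Changes beyond those bounds lie outside the interval, and smaller ones could not be resolved with 11 arrays.

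Fkbp5 (1388901_at), the co-chaperone that answers to the hormone, had the highest positive difference of the 10 genes. Control samples ran from 6.48 to 7.08 with a median of 6.94, and ketogenic samples were at 6.80, 7.32, 7.09, 7.27 and 7.07. Of the ketogenic samples 3 were above every control sample, and 2 control samples, 3 and 4, were below every ketogenic sample. The means were 6.83 ± 0.25 (n = 6) and 7.11 ± 0.20 (n = 5), a difference of 0.27 (1.21-fold) with a standard error of 0.13. The 95% interval ran from 0.00064 to 0.55, with an unadjusted p of 0.0495 and an adjusted p of 0.149 by limma. An unadjusted p under 0.05 was common here, at 33.3% of all tested probe sets. Fkbp5 stayed positive and uncalled under each of 23 alternative settings, between 0.19 and 0.35.

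**Figure D1:**
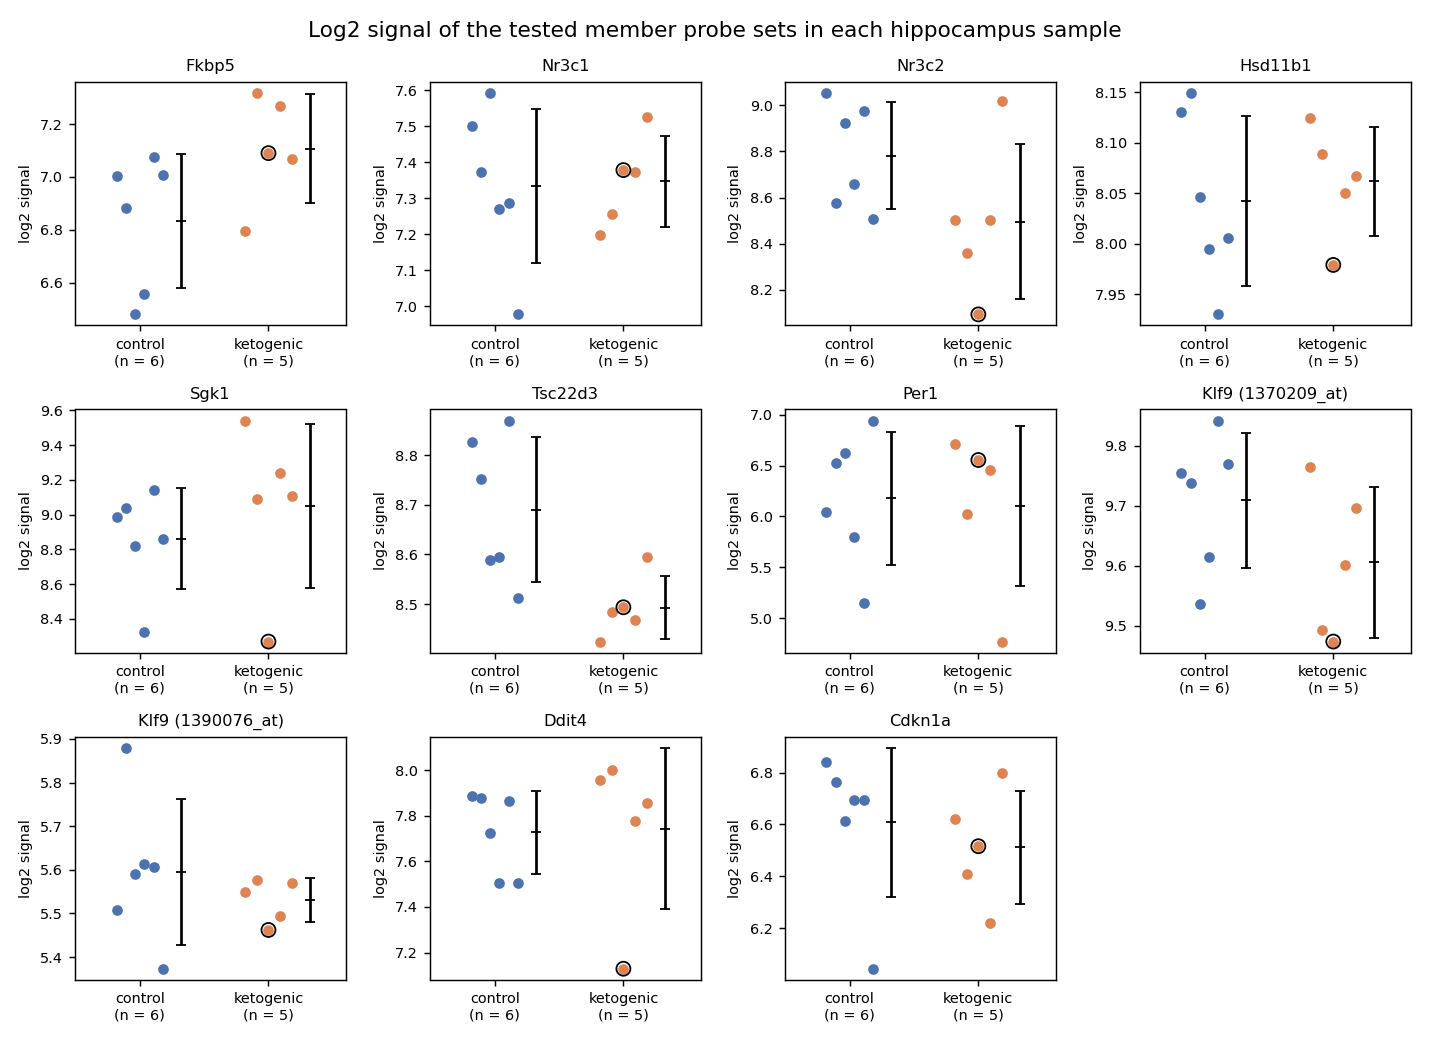
Log2 signal of the 11 tested probe sets of the 10 genes, 1 panel each, in the 6 control samples (blue) and 5 ketogenic samples (orange). Bars show mean ± SD, ringed points are ketogenic sample 3, and each panel has its own axis, so heights are not to be read between panels. The diets overlap in every panel, and 4 of 5 ketogenic samples lie below all control samples for Nr3c2 and for Tsc22d3.

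Among the genes that the receptors induce, Tsc22d3 was lower on the ketogenic diet in 5 of 5 samples relative to the control mean, and the other 5 genes had unadjusted limma p-values from 0.157 to 0.903. The Klf9 probe set 1390076_at was also below its control mean in 5 of 5 ketogenic samples, though its difference was only -0.06. Tsc22d3 encodes GILZ, a leucine zipper protein through which glucocorticoids exert anti-inflammatory effects. Its control samples (1367771_at) ran from 8.51 to 8.87 with a median of 8.67, and its ketogenic samples were at 8.42, 8.48, 8.49, 8.47 and 8.59. Ketogenic samples 1 to 4 were below every control sample, and 3 control samples were above every ketogenic sample. The means were 8.69 ± 0.15 (n = 6) and 8.49 ± 0.06 (n = 5), a difference of -0.20 with a standard error of 0.07 and a 95% interval from -0.35 to -0.04. Its unadjusted p of 0.0172 became 0.0788 after adjustment (limma). Without control sample 6, the control sample nearest to the ketogenic ones, the difference was -0.23 and was called (adjusted p = 0.0413). With both 3 prime to 5 prime ratios added to the model it was -0.06 (adjusted p = 0.972), in a fit that called 6 probe sets in all. Fkbp5 and Tsc22d3, both known as sensitive reporters of receptor activity, had differences of opposite sign.

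Sgk1, a kinase that both receptors induce and that regulates ion transport, had the largest spread among the ketogenic samples after Per1. Control samples (1367802_at) ran from 8.32 to 9.14 with a median of 8.92, and ketogenic samples were at 9.54, 9.09, 8.27, 9.24 and 9.11. Ketogenic samples 1 and 4 were above all control samples, and sample 3 was below all of them. The means were 8.86 ± 0.29 (n = 6) and 9.05 ± 0.47 (n = 5), a difference of 0.19 with a standard error of 0.18 and a 95% interval from -0.20 to 0.58 (limma adjusted p = 0.50). Without ketogenic sample 3 it was 0.38 (adjusted p = 0.0523), and without ketogenic sample 1 it was 0.06 (adjusted p = 0.838). With both 3 prime to 5 prime ratios added to the model it was -0.23.

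Ddit4, also called REDD1, which restrains mTORC1 and is induced by stress as well as by glucocorticoids, had a difference of 0.02 with a standard error of 0.14 (95% interval from -0.28 to 0.32, limma adjusted p = 0.941). Control samples (1368025_at) ran from 7.50 to 7.88 with a median of 7.79, and ketogenic samples were at 7.96, 8.0, 7.13, 7.78 and 7.86. Here too ketogenic sample 3 was below all others, and without it the difference was 0.17 (adjusted p = 0.197).

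Klf9, a transcription factor that glucocorticoids induce in neurons, had 3 probe sets, of which 2 were tested. At 1370209_at the control samples ran from 9.54 to 9.84 with a median of 9.75, and the ketogenic samples were at 9.76, 9.49, 9.47, 9.60 and 9.70. The difference was -0.10 with a standard error of 0.07 (95% interval from -0.25 to 0.04, limma adjusted p = 0.313), but 0.02 on the values as deposited and 0.06 after centring on the 75th percentile. The dimmer tested probe set (1390076_at, mean 5.57, near the filter) gave -0.06 with a standard error of 0.13 (adjusted p = 0.759). The untested one (1387882_at) had a mean of 4.81, just outside the filter.

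Per1 and Cdkn1a complete the induced genes. Per1, a clock gene whose promoter glucocorticoids act on directly, varied more than almost any probe set within diets, with a residual spread at percentile 98.8. Its control samples (1374855_at) ran from 5.15 to 6.94 with a median of 6.28, and its ketogenic samples were at 6.71, 6.02, 6.56, 6.46 and 4.77. The means were 6.18 ± 0.65 (n = 6) and 6.10 ± 0.79 (n = 5), and the difference of -0.08 had a standard error of 0.35 and a 95% interval from -0.81 to 0.66 (limma adjusted p = 0.895). An interval from -43.1% to 58.2% leaves the Per1 comparison the least informative of the 10. Cdkn1a, which encodes the cell cycle inhibitor p21, ran from 6.04 to 6.84 with a median of 6.69 in control samples (1388674_at) and was at 6.62, 6.41, 6.52, 6.22 and 6.80 in ketogenic samples. Its difference was -0.10 with a standard error of 0.14 (limma adjusted p = 0.671), and its other probe set (1387391_at, mean 2.87) was below the filter.

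**Figure D2:**
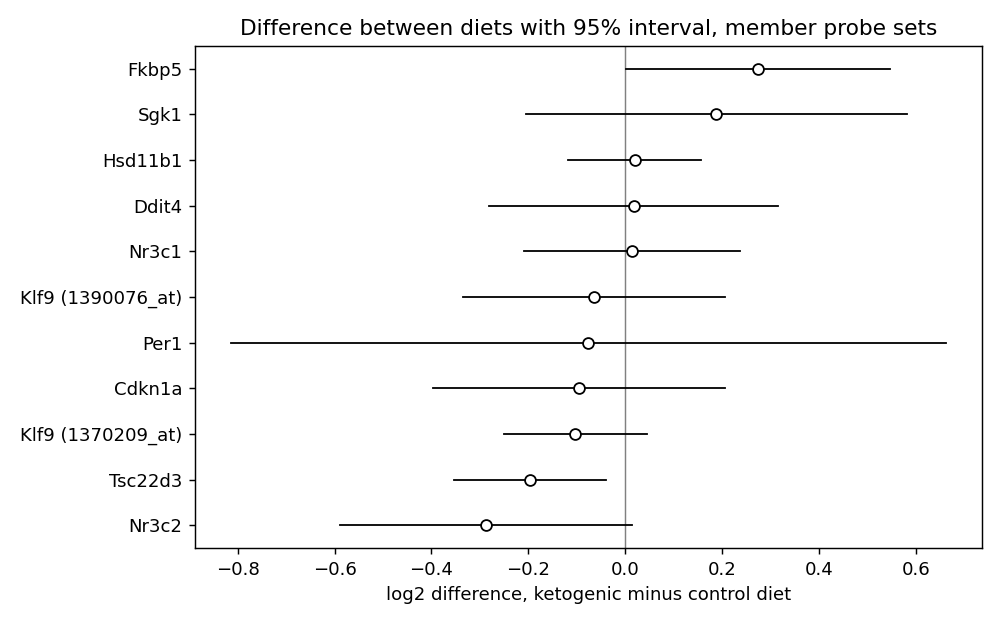
Log2 difference, ketogenic minus control diet (x axis), with its 95% interval from the limma fit for each of the 11 tested probe sets. Intervals are not adjusted for the number of probe sets. Those of Fkbp5 and Tsc22d3 exclude 0, that of Hsd11b1 is the narrowest and that of Per1 the widest.

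Over the 11 tested probe sets, 5 had a positive and 6 a negative difference. The median difference was -0.06, against -0.004 over all tested probe sets, and the median size without regard to sign was 0.096, against 0.166. None had diets that did not overlap, against 6.99% of all tested probe sets, and 2 of 11 had an unadjusted p under 0.05, against the 33.3% given above. Without ketogenic sample 3, none was called either: the difference was 0.28 for Fkbp5 (adjusted p = 0.152), -0.20 for Tsc22d3 (0.0765), 0.04 for Hsd11b1, 0.006 for Nr3c1, -0.19 for Per1, -0.10 for Cdkn1a and -0.07 for Klf9 (1370209_at), beside the values for Nr3c2, Sgk1 and Ddit4 given above.

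The genes varied among themselves within diets as well. Deviations of each sample from the mean of its own diet were correlated for the 55 pairs of tested probe sets over 11 samples, as a description, since all genes of a sample share its array and RNA quality. Of the pairs, 39 were positive, and the median Pearson r was 0.24. The highest r was that of Sgk1 and Ddit4, at 0.87 (Spearman 0.69). Without ketogenic sample 3 it was 0.65, and without the 2 farthest samples 0.48, so the high value rests on few samples. Here and below, the 2 farthest samples are those farthest from the median deviation of the first-named gene. The rank of this pair was not stable either. Without ketogenic sample 3, Nr3c1 with Nr3c2 had 0.72 and Tsc22d3 with Ddit4 0.71. By Spearman, Sgk1 with Klf9 (1370209_at) had 0.74 and Hsd11b1 with Ddit4 0.71. Sgk1 and Klf9 (1370209_at) had r = 0.71, and 0.70 without the 2 farthest samples. The lowest values were -0.70 for Nr3c2 with Per1 and -0.68 for Tsc22d3 with Per1, which were -0.45 and -0.46 without the 2 farthest samples.

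**Figure D3:**
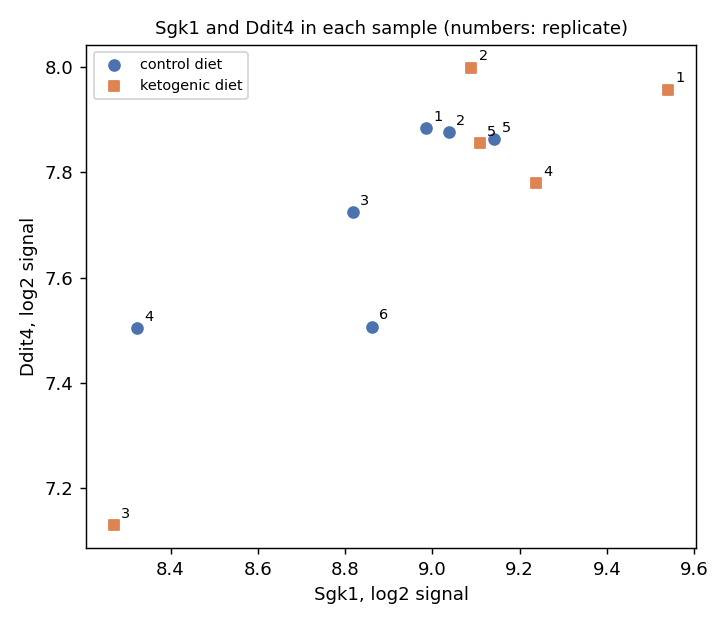
Log2 signal of Ddit4 (y axis) against Sgk1 (x axis) in the 6 control samples (blue circles) and 5 ketogenic samples (orange squares), with replicate numbers, for which the labels state no pairing. Ketogenic sample 3 is lowest on both axes, at 8.27 for Sgk1 and 7.13 for Ddit4, and the control samples span 8.32 to 9.14 for Sgk1 and 7.50 to 7.88 for Ddit4.

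For each tested probe set the most similar probe set of another gene was found by the same correlation among 9844 named probe sets. For Sgk1 it was Hyou1 (r = 0.93), followed by Rwdd2b and Acp1 (both 0.93). For Ddit4 it was 2810025M15Rikl (0.98), then Rprd1b and Trim2 (both 0.96). For Fkbp5 it was Mybpc3 (0.94), for Nr3c1 Nfatc3 (0.94), for Nr3c2 Apc (0.92) and for Tsc22d3 Atp5me (0.91). For Hsd11b1 it was Exd2 (0.90), for Per1 Arf5 (0.93), for Klf9 (1370209_at) Plin1 (0.97) and for Cdkn1a Or7a37 (0.95). Each is the highest of 9844 values over 11 samples, and the highest value of every tested probe set of these genes lay between 0.90 and 0.98.

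Genes around the receptors were described from 6 lists, in which each gene is represented by the brightest of its tested probe sets. The lists were chosen with earlier results of these data known, so their counts are a description and no independent comparison. Of 80 genes, 17 were called, 12 higher and 5 lower, against 16.9% of the 8397 genes tested, 8.85% higher and 8.03% lower. On the values as deposited it was 23 genes, 13 higher and 10 lower, and centred on the 75th percentile 24, with 16 and 8. With both 3 prime to 5 prime ratios added to the model it was 0, so that fit kept none of the list calls named below. It called 6 probe sets in all. Without ketogenic sample 3 the number of list genes called was 26, and without ketogenic samples 4 or 2 or control sample 5 it was 8, 10 and 11.

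Among coregulators, 3 of 9 genes were called, all higher. A positive difference was found for 6 of the 9, and the median difference was 0.26. With both 3 prime to 5 prime ratios in the model, 0 of the 9 were called, and the median was 0.07. Crebbp, the acetyltransferase CBP that receptors recruit to open chromatin, rose by 0.88 with a standard error of 0.14 (adjusted p = 0.00282). Its control samples ran from 5.92 to 6.71 with a median of 6.36, and its ketogenic samples from 6.93 to 7.52 with a median of 7.32, so the diets did not overlap. Ncoa1, the steroid receptor coactivator SRC-1, rose by 0.27 (standard error 0.06, adjusted p = 0.0146), from 8.74 ± 0.10 (n = 6) to 9.01 ± 0.08 (n = 5). Nr2f2, the orphan receptor COUP-TFII, rose by 0.37 (standard error 0.09, adjusted p = 0.0177), while its other tested probe set had the opposite sign. Nr2f2 lost its call without ketogenic sample 2 (0.34, adjusted p = 0.0511) or 4 (0.35, adjusted p = 0.0508), and on the values as deposited (0.25, adjusted p = 0.0543).

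In the chaperone complex 4 of 14 genes were called, and the median difference was 0.12. Hsp90ab1, the constitutive Hsp90, rose by 0.18 (adjusted p = 0.0345), with its other probe set opposite in sign. Bag1, a co-chaperone that regulates receptor folding, rose by 0.41 (adjusted p = 0.0345), and Stub1, the ubiquitin ligase CHIP that marks chaperone clients for destruction, rose by 0.28 (adjusted p = 0.0412). Dnajb1, an Hsp40 co-chaperone, fell by 0.38 (adjusted p = 0.0442). These calls were near the threshold: leaving out 1 sample ended that of Bag1 in 8 of 11 cases, of Stub1 and Dnajb1 in 9 and of Hsp90ab1 in 6. Differences over those cases ran from 0.31 to 0.52 for Bag1, 0.24 to 0.34 for Stub1, -0.44 to -0.24 for Dnajb1 and 0.14 to 0.21 for Hsp90ab1. All 4 calls were also lost with no filter, and when the spike-in level was added to the model. The Hsp90ab1 difference was 0.33 on the values as deposited and 0.36 after centring on the 75th percentile. Fkbp4, which opposes Fkbp5 in the complex, had a difference of 0.05 (adjusted p = 0.671) and Ptges3, the co-chaperone p23, one of -0.14 (adjusted p = 0.131).

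In steroid metabolism, 1 of 4 genes was called: Tspo, the translocator protein of the outer mitochondrial membrane, fell by 0.39 (adjusted p = 0.0385). That call was lost in 8 of 11 leave-outs, over which the difference ran from -0.48 to -0.32, and with no filter (adjusted p = 0.0659) or the spike-in level in the model (adjusted p = 0.0967). Tspo is also abundant in microglia, whose 6 tested markers had a median difference of -0.24, and that part was not tested. Hsd11b2, which inactivates corticosterone, had a difference of -0.26 (adjusted p = 0.198). Of 5 stress axis genes none was called, and the largest difference was that of Avp, vasopressin, at -0.47 (adjusted p = 0.0750). On the values as deposited and after centring on the 75th percentile, 2 of these 5 were called lower.

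Among 33 other genes known to respond to glucocorticoids, 5 were called higher and 2 lower. A positive difference was found for 23 of the 33, and the median difference was 0.11. Cebpb, a transcription factor of the stress and metabolic response, rose by 0.73 (standard error 0.17, adjusted p = 0.0125), from 5.66 ± 0.23 (n = 6) to 6.39 ± 0.36 (n = 5). Errfi1, a feedback inhibitor of the EGF receptor, rose by 0.54 (standard error 0.11, adjusted p = 0.00861). Ccn2, a secreted matrix protein, rose by 0.48 (standard error 0.10, adjusted p = 0.00662), with control samples from 6.33 to 6.67 and ketogenic samples from 6.79 to 7.14. Mt2A, a metallothionein that glucocorticoids induce, fell by 0.31 (standard error 0.08, adjusted p = 0.0163). These 4 kept their calls in each leave-out, but Mt2A lost its call on the values as deposited (-0.19, adjusted p = 0.0776) and after centring on the 75th percentile (-0.16, adjusted p = 0.147). With both 3 prime to 5 prime ratios in the model, 0 of the 33 genes were called, and the median difference was 0.10. The 3 remaining genes called in the reported fit were named after their values were seen. Sult1a1 and Fam107a rose by 0.48 and 0.29 (limma adjusted p = 0.0177 and 0.0341), and Bcl2l1 fell by 0.46 (0.0180). These 3 calls were not followed gene by gene over the alternatives. Dusp1, a phosphatase that is a classic receptor target, had a difference of 0.43 (adjusted p = 0.0781), and without ketogenic sample 3 it was 0.49 (adjusted p = 0.0447).

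In the clock list 2 of 15 genes were called, with a median of 0.07. Deposited values gave -0.05, with all tested probe sets at -0.060, and centring on the 75th percentile gave -0.02, with all at -0.027. Hlf, a clock output factor, fell by 0.40 (standard error 0.08, adjusted p = 0.00622), with control samples from 8.51 to 8.81 and ketogenic samples from 8.13 to 8.42. Nr1d2, the repressor REV-ERB beta, rose by 0.36 (standard error 0.09, adjusted p = 0.0205), and it lost its call without ketogenic sample 2 (0.34, adjusted p = 0.0569) or 4 (0.33, adjusted p = 0.0602), or when the spike-in level was in the model (0.35, adjusted p = 0.0523). Per2 had a difference of 0.23 (adjusted p = 0.183), called without ketogenic sample 3 (0.34, adjusted p = 0.0245), Dbp one of 0.07 (adjusted p = 0.60) and Nr1d1 one of 0.09 (adjusted p = 0.741).

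**Figure D4:**
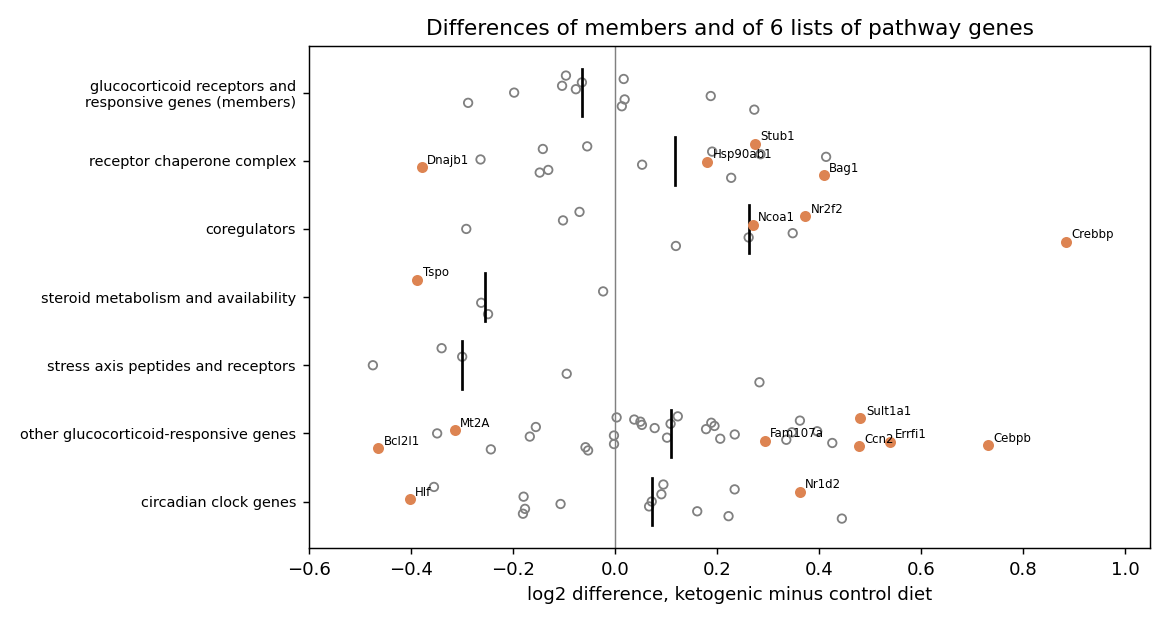
Log2 difference, ketogenic minus control diet (x axis), of the 11 tested probe sets of the 10 genes (top row) and of the 80 genes in 6 related lists, 1 row a list. Filled, named points were called after adjustment over all probe sets, open points were not, and vertical bars are medians. The top row has no filled point and lies between -0.29 and 0.27, and the highest point is Crebbp at 0.88.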

How the data were processed

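The deposited values are linear array intensities, 1 column per sample for 15923 probe sets; how the authors made them from scanner images is not given in the sources used here. Array medians ran from 79.9 to 94.2 and spanned 0.24 on the log2 scale, so log2 intensities were quantile-normalized. Values below the pooled 5th percentile (4.99) were set to it, 57 control probe sets were excluded, as were the 25% of lowest mean from testing. Diets were compared with limma 3.58.1 in R 4.3.3 (lmFit, eBayes with trend, two-sided, Benjamini-Hochberg over 11899, threshold 0.05). The fit was tested on simulated data with planted differences and independent normal noise. That simulation held no array or RNA quality effect, so it does not speak to how the calls depend on these. The number of arrays limits the precision.

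Symbols came from the platform annotation, which can be old, updated through RefSeq's GRCr8 gene table: of 13101 annotated probe sets 12789 had 1 symbol, 312 several, while 2771 on the array had no entry and stay unnamed. The members and lists were chosen with earlier results of these data known. Named were every member probe set, up to 4 called genes with the smallest p from each list, and Fkbp4, Hsp90aa1, Hsp90ab1, Ptges3, Hsd11b2, Per2, Dbp, Nr1d1, Crhr1 and Dusp1, of which Hsp90aa1 and Crhr1 had no tested probe set. No 2 columns were identical. Alternatives covered scaling, filter, floor, offset, variance model, array weights, covariates, a replicate block, the threshold and each sample left out.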

Additional observations from a re-analysis of the deposited data

Results flagged for a closer look

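Within each diet, the most extreme sample of each of the 14 probe sets was compared with its group by Dixon's test, which chance passes in about 1 of 20 groups. Of 28 groups, 3 passed, against 1.4 by chance. Ddit4 in ketogenic sample 3 was at 7.13, with the other ketogenic samples between 7.78 and 8.0. Cdkn1a (1388674_at) in control sample 6 was at 6.04, with the others between 6.61 and 6.84. The untested Klf9 probe set (1387882_at) in ketogenic sample 1 was at 3.83, with the others between 4.87 and 5.07.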

How the results depend on the processing

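Under 23 alternatives to the reported fit and a threshold of 0.1, Fkbp5, Nr3c2 and Tsc22d3 never changed sign, while the other tested probe sets had 27 reversed values in all, and the cause was not tested. Member calls were 0 except 1 at a threshold of 0.1 and from 0 to 1 with a sample left out. Calls over all probe sets, 1961 (1026 higher, 935 lower), were 2812 on deposited values (1076 higher, 1736 lower), 2726 after centring on the 75th percentile (1347 and 1379), 3137 with array weights, 6 with both 3 prime to 5 prime covariates, 908 with the spike-in covariate, 3071 at a threshold of 0.1, and 798 to 3165 with a sample left out (without ketogenic samples 4 and 3). Called list genes were 11 with no filter, 26 with array weights, 0 with the 3 prime to 5 prime covariates, 10 with the spike-in covariate, 29 at a threshold of 0.1 and 8 to 26 with a sample left out. Reversed values on deposited values were -0.041 for Nr3c1, 0.023 for Klf9 (1370209_at), -0.0016 for Ddit4 and -0.052 for Nr1d1; after centring, -0.0075 for Nr3c1, 0.057 for Klf9 (1370209_at), 0.011 for Ptges3 and -0.019 for Nr1d1. With array weights Nr3c1 was -0.0036. With the spike-in covariate, Nr3c1 was -0.0032, Ddit4 -0.056 and Nr1d1 -0.0049. With the 3 prime to 5 prime covariates, Hsd11b1 was -0.060, Sgk1 -0.23, Ddit4 -0.30, Klf9 (1390076_at) 0.057, Cdkn1a 0.096, Bag1 -0.0064, Fkbp4 -0.019, Per2 -0.053 and Dbp -0.11. With a sample left out, Nr3c1 ran from -0.058 to 0.066, Hsd11b1 from -0.0035 to 0.041, Per1 from -0.28 to 0.26, Ddit4 from -0.046 to 0.17 and Nr1d1 from -0.029 to 0.22.

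The control and ketogenic samples carry the same numbers, and the labels do not say whether this marks pairs. Deviations of same-numbered samples correlated at 0.0089 to 0.077. These values were not set against those of differently numbered samples, so they cannot decide whether the numbers pair samples. With the replicate number as a block, 1815 probe sets, 17 list genes (13 higher, 4 lower, against 12 and 5) and 0 members were called. Nr2f2, Tspo and Nr1d2 were then not called (adjusted p = 0.0534, 0.0540 and 0.0526, limma), and Nr3c1 was -0.057, Per1 0.077, Ddit4 -0.027 and Nr1d1 -0.029.

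With 6 and 5 arrays, the standard errors of Fkbp5 and Nr3c2, 0.13 and 0.14, limit what can be resolved. The dimmer Klf9 probe set, near the filter, moved from -0.06 to -0.26 on deposited values and -0.23 after centring, without a call. Leaving out the lower 50% by mean removed Per1 and that probe set, which have no value there.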
